A study of Mus musculus with 4 samples.

Results

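Levels of 10 early response genes were compared between macrophages grown without tumour cells (mock) and macrophages cocultured with CT26, a colon carcinoma line of the mouse. The macrophages are RAW264.7, a transformed mouse line. The genes are Egr1, Egr2 and Egr3 of the EGR family, Klf2, Klf4 and Klf6 of the KLF family, Ier2, Ier3 and Ier5 of the IER group, and Srf. They were picked by symbol and make up 10 of the 22554 genes that both deposited tables name once. Messenger RNA of 2 mock and 2 coculture libraries was sequenced, and each table holds 1 mock and 1 coculture library of the same replicate number, called pair 1 and pair 2 here. Both groups are the same line, grown in DMEM per the labels, CT26 cells were grown in RPMI1640, and the duration and medium of the coculture, and how the 2 lines were separated for RNA, were not known here. Levels are in FPKM, which divides the fragments of a gene by its length and by the library total, so genes of different length can be set side by side. All 10 genes reached 1 FPKM in at least 2 of the 4 libraries, as did 10202 genes in all, and these were tested.

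Early response genes are switched on by existing transcription factors within minutes of a stimulus, before new protein is made. SRF (serum response factor) drives some of them by binding CArG boxes in promoters. It acts together with ELK proteins, which the ERK kinases phosphorylate, or with MRTF proteins, which respond to actin. The EGR proteins are zinc finger transcription factors induced in this way, and the NAB corepressors restrain them. KLF2 and KLF4 are zinc finger factors known in macrophages as brakes on inflammatory genes and, for KLF4, as a factor of alternative activation, while KLF6 is known to favour inflammatory genes. Of the IER proteins, IER3 acts in cell survival and ERK signalling and is a known NF-kappaB target, IER2 is a small nuclear protein, and IER5 modulates the heat shock factor HSF1.

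The promoters of Ier3, Srf, Klf2 and Egr2 are shown because they hold letters known as binding motifs of NF-kappaB, SRF and MEF2, factors that are known to act on early response genes. They come from RefSeq on GRCm38.p6, in which 7 of the 10 genes had a window. Egr1, Egr3 and Ier2 are not shown. The deposited tables carry no coordinates. Each line gives the bases upstream of the annotated start that lie outside exons, or 30 bases around a site for Egr2, which has 5 windows. In GENCODE M21 the Ier3 and Klf2 stretches lie upstream of the gene with no exon in them, the Srf stretch lies within the gene Gm26904 but outside its exons, and the Egr2 site lies within Egr2 outside its exons. Sequences run 5′ to 3′ on the gene's strand, and capitals mark matches to the kappaB consensus and to GGAATTTCC in Ier3, to the CArG box in Srf and Egr2, and to the MEF2 consensus in Klf2.
Ier3, chr17:35821463-35821683, plus strand: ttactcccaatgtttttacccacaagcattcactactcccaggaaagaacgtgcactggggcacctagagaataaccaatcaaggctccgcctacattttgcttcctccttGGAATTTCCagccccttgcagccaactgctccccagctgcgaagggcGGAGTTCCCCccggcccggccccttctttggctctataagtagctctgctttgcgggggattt
Srf, chr17:46556176-46556412, minus strand: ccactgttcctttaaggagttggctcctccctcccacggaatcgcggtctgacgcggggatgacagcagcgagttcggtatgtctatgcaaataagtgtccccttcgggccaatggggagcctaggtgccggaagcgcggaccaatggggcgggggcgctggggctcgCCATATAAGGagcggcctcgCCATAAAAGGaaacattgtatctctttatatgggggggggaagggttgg
Klf2, chr8:72318812-72319032, plus strand: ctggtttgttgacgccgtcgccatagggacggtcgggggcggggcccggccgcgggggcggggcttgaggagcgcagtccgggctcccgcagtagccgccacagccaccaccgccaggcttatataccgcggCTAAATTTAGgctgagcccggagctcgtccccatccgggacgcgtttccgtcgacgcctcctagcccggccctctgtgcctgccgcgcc
Egr2, chr10:67537787-67537816, plus strand: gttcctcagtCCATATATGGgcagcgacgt

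Motifs were searched on both strands of the 250 bases before each start. The Ier3 window held GGAATTTCC at 139 to 131 bases before the start and a kappaB match, on the other strand, at 92 to 83 bases. The Srf window held 2 CArG boxes, at 82 to 73 and 62 to 53 bases before the start, and the first of them contains 1 of its 2 TATAA matches. The Klf2 window held a MEF2 match at 118 to 109 bases. Of the Egr2 windows, 4 held a CArG box, but 3 of these overlap and hold the same box, so there are 2 distinct sites. Another Egr2 window held 2 overlapping kappaB matches, at 117 to 108 and 116 to 107 bases before its start. Thus 2 of the 7 genes, and 2 of their 11 windows, had a kappaB match. The shares below are per window, and Egr2 has several windows. Among 32817 windows of the same length, 1.47% held a CArG box, 7.25% the kappaB consensus, 0.286% GGAATTTCC (a motif chosen after the Ier3 sequence was read) and 0.509% the MEF2 consensus. The motifs shown in capitals were all chosen after the sequences were read, so these shares give no test of enrichment. The EGR site GCGNGGGCG, present in 4.70% of windows, was found in Klf2, Klf4 and Srf, in each case overlapping a GGGGCGGGG match of the Sp and KLF kind (10.4% of windows). The ETS core CCGGAAG (6.90%) was found in Srf. None of the 7 genes held TGACGTCA (1.55%), TGANTCA (6.75%) or CCACACCC (3.19%), and TATAA (22.8%) was found in 6 of them. A match of letters describes the sequence and says nothing about binding in these cells.

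A difference is the coculture value less the mock value of log2(FPKM + 1), which understates the change of low genes, and each test is limma's with the pair as a block. The ± value is limma's moderated standard error over n = 2 pairs, which borrows spread across genes, and p-values were adjusted by Benjamini-Hochberg over the 10202 tested genes. Ier3 was many times higher in coculture in both pairs, and it was the only one of the 10 genes to pass at an adjusted p under 0.05. The background for such rises was 0.127% of the tested genes, and 0 genes passed in the lower direction, with 9.45% lower at an unadjusted p under 0.05. Without this adjustment Ier3 and Egr1 were higher (background 5.26%) and Klf4 was lower. The median difference of the 10 genes was 0.18, or 0.58 in pair 1 and 0.01 in pair 2, against -0.07, -0.09 and -0.06 over all tested genes. Of the 10 genes, 5 were higher in both pairs, 2 were lower in both and 3 went opposite ways, where the tested genes gave 21.5%, 42.2% and 35.8%.

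For Ier3, pair 1 gave 29.1 FPKM (mock) and 639 FPKM (coculture), and pair 2 gave 50.0 FPKM (mock) and 654 FPKM (coculture). Both coculture libraries lay far above both mock libraries and close to each other, while the mock libraries differed by 1.72-fold across 2 tables that may have been normalized separately. The tables also differ gene by gene. Amd1, chosen after its values were seen, was at 36.5 and 37.6 FPKM in pair 1 and listed at 0 in both libraries of pair 2. Comparisons of levels across the tables, here and below, carry this limit, and its cause was not tested. The rise of Ier3 was 4.41 in pair 1 and 3.68 in pair 2, or 4.05 ± 0.21 (limma adjusted p = 0.0297), the seventh largest of the 10202. The call holds in 6 of 13 other settings and is lost without the pair block (limma adjusted p = 0.277), with no filter on low values (0.210), without a trended prior variance (0.0901) and without any 1 library (0.437 to 0.848). The difference itself stayed between 3.67 and 4.43 in all 13. In bulk libraries, more responding cells and more RNA per cell cannot be told apart. In the order of levels over the 22554 genes, Ier3 moved from place 2954 to 54 in pair 1 and from 1600 to 46 in pair 2.

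The other 2 IER genes showed no difference of that size. For Ier2, pair 1 gave 24.0 FPKM (mock) and 29.8 FPKM (coculture), and pair 2 gave 24.8 FPKM (mock) and 24.6 FPKM (coculture). The mean difference was 0.15 ± 0.14 (limma adjusted p = 0.662), and the groups overlapped. Levels of Ier5 were 8.54 FPKM (mock) and 13.9 FPKM (coculture) in pair 1, and 15.8 FPKM (mock) and 16.2 FPKM (coculture) in pair 2. Its level in mock 2 was above that in coculture 1, so the groups overlapped, and the mean difference was 0.34 ± 0.20 (limma adjusted p = 0.492). Within a library, Ier3 was 1.21 and 2.02 times the level of Ier2 in mock and 21.4 and 26.6 times in coculture, a ratio that does not depend on how a library was scaled.

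**Figure D1:**
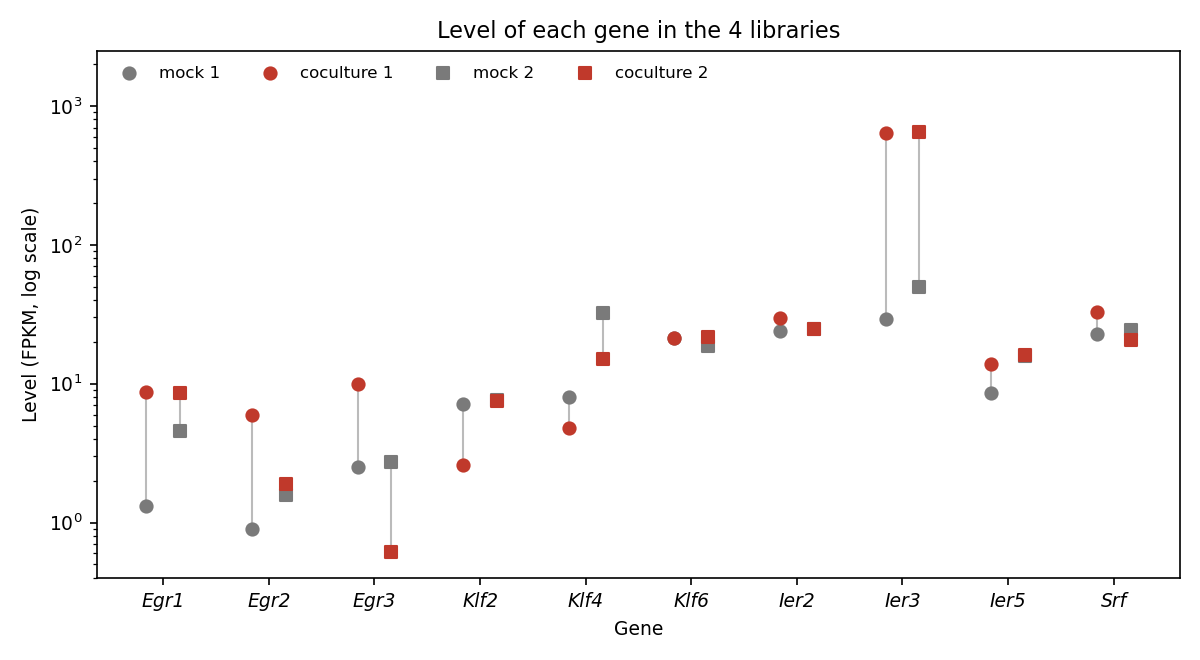
Level of each of the 10 genes in FPKM (log axis) in the mock (grey) and coculture (red) libraries of pair 1 (circles) and pair 2 (squares), with a line joining the libraries of a pair. Ier3 rises from 29.1 and 50.0 to 639 and 654 FPKM, while Egr3 is higher in coculture in pair 1 and lower in pair 2.

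The EGR genes were all higher in coculture in pair 1 and went separate ways in pair 2. For Egr1, pair 1 gave 1.31 FPKM (mock) and 8.75 FPKM (coculture), and pair 2 gave 4.58 FPKM (mock) and 8.62 FPKM (coculture). The coculture libraries had nearly the same level and the mock libraries differed by 3.49-fold. Both coculture libraries lay above both mock libraries, which was also so for Egr2, Klf6 and Ier3, 4 of the 10 against 10.3% of the tested genes, a comparison that runs across the 2 tables. Its mean difference was 1.43 ± 0.35, with 2.07 in pair 1 and 0.79 in pair 2, and it did not pass (limma adjusted p = 0.230). Without mock 1 the Egr1 difference was 0.79, and without mock 2 it was 2.07.

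Egr2, which in macrophages is known as a marker of alternative activation, was at 0.901 FPKM (mock) and 5.99 FPKM (coculture) in pair 1. The levels of pair 2 were 1.57 FPKM (mock) and 1.88 FPKM (coculture). The difference was thus 1.88 in pair 1 and 0.17 in pair 2, with a mean of 1.02 ± 0.45 (limma adjusted p = 0.385). Without coculture 1 the Egr2 difference was 0.38, and without coculture 2 it was 1.66. For Egr3, pair 1 gave 2.53 FPKM (mock) and 9.97 FPKM (coculture), but pair 2 gave 2.72 FPKM (mock) and 0.613 FPKM (coculture). The mock libraries were alike and the coculture libraries were the highest and the lowest of the 4. The pairs thus differed in sign, at 1.64 and -1.20 (mean 0.22 ± 0.70, limma adjusted p = 0.903). In pair 1 Egr1, Egr2 and Egr3 ranked 64, 80 and 99 among the 10202 differences from the top, and in pair 2 they ranked 486, 2456 and 10082.

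The depth was estimated at 15400000 and 15800000 reads for mock 1 and 2 and at 16200000 and 12200000 reads for coculture 1 and 2. With exon lengths from GENCODE M21, Egr3 came to about 171 and 713 reads in mock 1 and coculture 1, and to 189 and 33 reads in mock 2 and coculture 2. The coculture to mock ratio of Egr3 was 3.94 in pair 1 (95% exact binomial interval 3.33 to 4.69) and 0.226 in pair 2 (0.151 to 0.327). Both intervals exclude 1, on opposite sides. They cover counting error only, not the spread between cultures, and rest on the estimated reads. The Egr1 ratio was 6.65 (5.36 to 8.43) in pair 1 and 1.88 (1.63 to 2.17) in pair 2, so its size also differed between the pairs by more than counting error. For Egr2 the ratio was 6.65 (4.88 to 9.22) in pair 1, while in pair 2, with about 84 reads in mock 2 and 78 in coculture 2, its interval of 0.868 to 1.65 spans 1 and no difference was detectable at this depth.

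**Figure D2:**
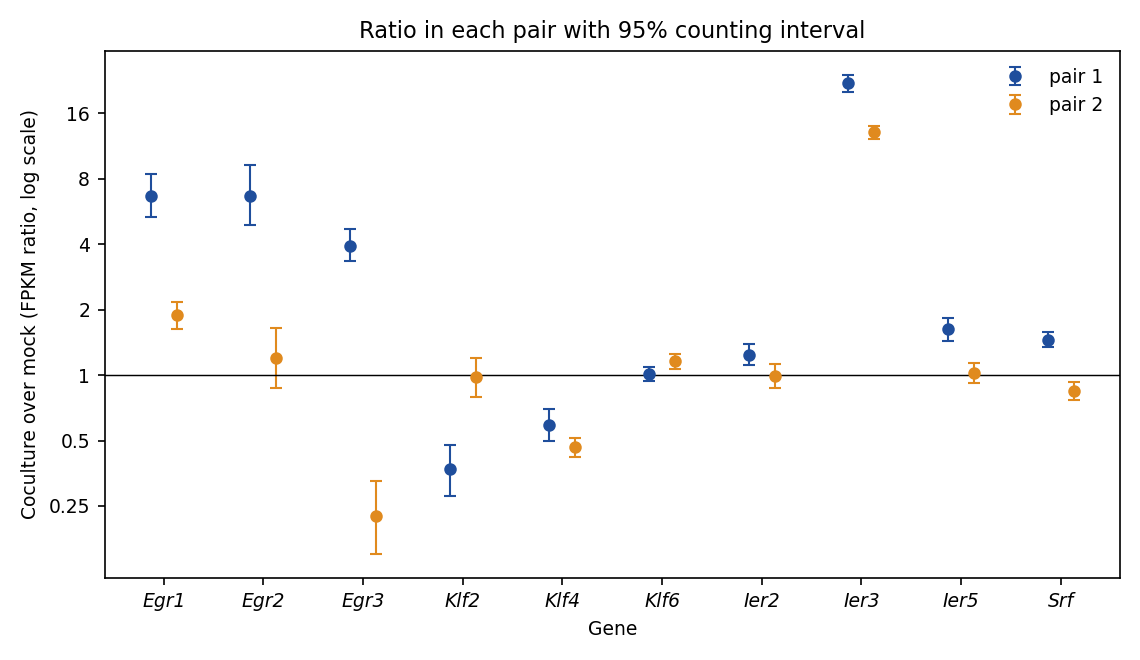
Coculture to mock FPKM ratio of each gene (log axis, line at 1) in pair 1 (blue) and pair 2 (orange), with 95% exact binomial intervals from estimated reads, which cover counting error only. The pairs differ most for Egr3, at 3.94 and 0.226, and both Ier3 ratios lie above 10, at 22.0 and 13.1.

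Among the KLF genes, Klf4 was lower in coculture in both pairs, Klf2 in pair 1, and Klf6 was nearly level. For Klf4, pair 1 gave 8.09 FPKM (mock) and 4.78 FPKM (coculture), and pair 2 gave 32.1 FPKM (mock) and 15.0 FPKM (coculture). The 2 mock libraries differed by 3.97-fold, more than either pair, so the groups overlapped across tables although coculture was lower in each pair. The differences were -0.65 and -1.05, with a mean of -0.85 ± 0.17 that did not pass (limma adjusted p = 0.182). Without mock 2 the Klf4 difference was 0.08, in a comparison that no longer stays within a table. Its ratio was 0.591 in pair 1 (counting interval 0.499 to 0.695) and 0.466 in pair 2 (0.422 to 0.513).

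For Klf2, pair 1 gave 7.10 FPKM (mock) and 2.61 FPKM (coculture), and pair 2 gave 7.65 FPKM (mock) and 7.47 FPKM (coculture). Coculture 1 was the 1 library that stood apart. The difference was -1.16 in pair 1 and -0.03 in pair 2 (mean -0.60 ± 0.31, limma adjusted p = 0.443). The ratio in pair 2 was 0.977 with a counting interval of 0.795 to 1.20. Klf6 measured 21.3 FPKM (mock) and 21.5 FPKM (coculture) in pair 1 and 18.7 FPKM (mock) and 21.6 FPKM (coculture) in pair 2, a mean difference of 0.10 ± 0.13 (limma adjusted p = 0.740). The KLF sum was 36.5 FPKM (mock) and 28.9 FPKM (coculture) in pair 1, a ratio of 0.791, and 58.4 FPKM (mock) and 44.0 FPKM (coculture) in pair 2, a ratio of 0.753. Klf2 and Klf4 were both lower in pair 1, while in pair 2 Klf4 was lower and Klf2 nearly level. The KLF sum was not tested.

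For Srf, pair 1 gave 22.7 FPKM (mock) and 32.9 FPKM (coculture), and pair 2 gave 24.5 FPKM (mock) and 20.7 FPKM (coculture). It was thus highest in coculture 1 and lowest in coculture 2. Its differences were 0.52 and -0.23 (mean 0.14 ± 0.21, limma adjusted p = 0.781). The counting interval of the ratio was 1.34 to 1.57 in pair 1 and 0.770 to 0.929 in pair 2.

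**Figure D3:**
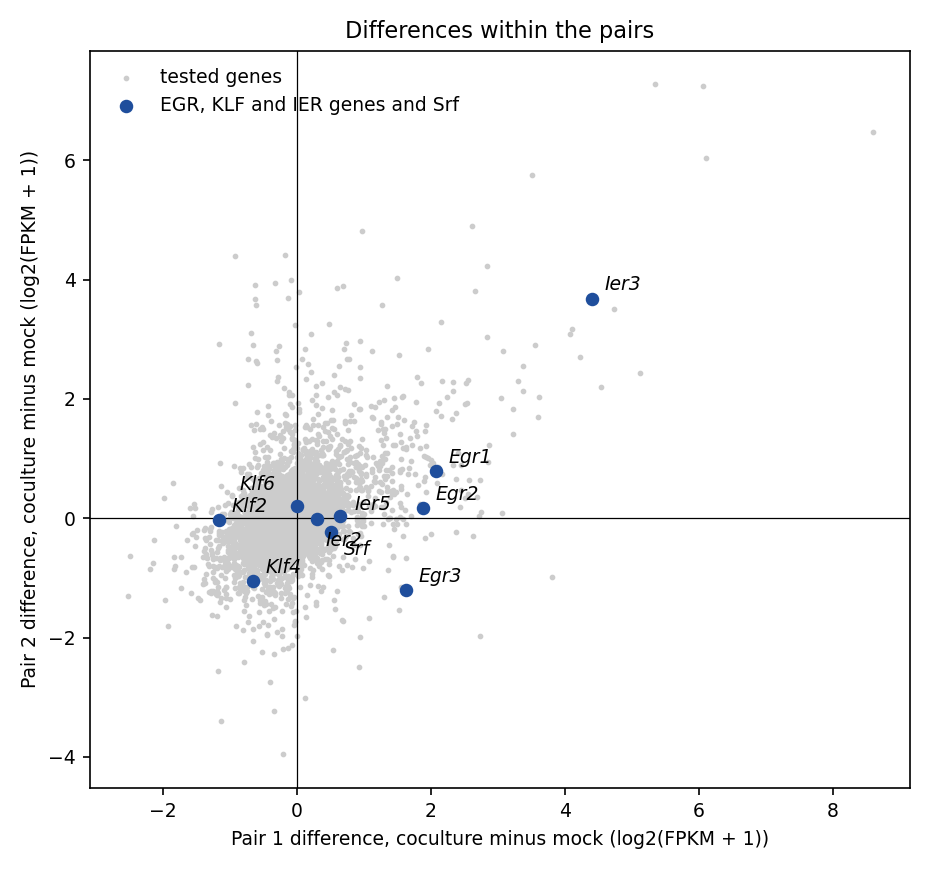
Difference of coculture minus mock in pair 1 (x axis) against pair 2 (y axis), log2(FPKM + 1), for the 10202 tested genes (grey) and the 10 early response genes (blue). Ier3 lies at 4.41 and 3.68, far from the other 9, and Egr3 lies in the quadrant of genes higher in pair 1 and lower in pair 2.

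At least a 2-fold difference in both pairs was seen for Ier3 alone among the 10 in the higher direction (background 1.02%) and for 0 of the 10 in the lower direction (background 0.353%). In pair 1 alone, Ier3, Egr1, Egr2 and Egr3 were 2-fold higher (background 2.26%) and Klf2 2-fold lower (background 1.47%). In pair 2 alone, Ier3 was 2-fold higher (background 3.23%) and Klf4 and Egr3 were 2-fold lower (background 1.87%). At a 1.5-fold bound in both pairs, Ier3 and Egr1 were higher (background 2.4%) and Klf4 was lower (background 2.17%).

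The order of levels within each library was led by Ier3 in all 4. In mock 1, Ier2, Srf and Klf6 followed within 21.3 to 24.0 FPKM, and these 3 kept places 2 to 5 in every library. Srf exchanged places with Ier2 and with Klf6 between libraries, and Klf4 was second in mock 2. Ier2 lay above Klf6 in all 4 libraries. The order of these genes was not tested. Egr2 was the lowest gene in both mock libraries, Klf2 in coculture 1 and Egr3 in coculture 2. Ier3 made up 23.2% and 27.4% of the summed FPKM of the 10 genes in mock and 83.1% and 84.9% in coculture. The sum was 126 FPKM (mock 1), 769 FPKM (coculture 1), 182 FPKM (mock 2) and 771 FPKM (coculture 2). Without Ier3 the remaining 9 genes summed to 96.5 FPKM (mock 1), 130.3 FPKM (coculture 1), 132 FPKM (mock 2) and 117 FPKM (coculture 2). These sums were not tested.

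**Figure D4:**
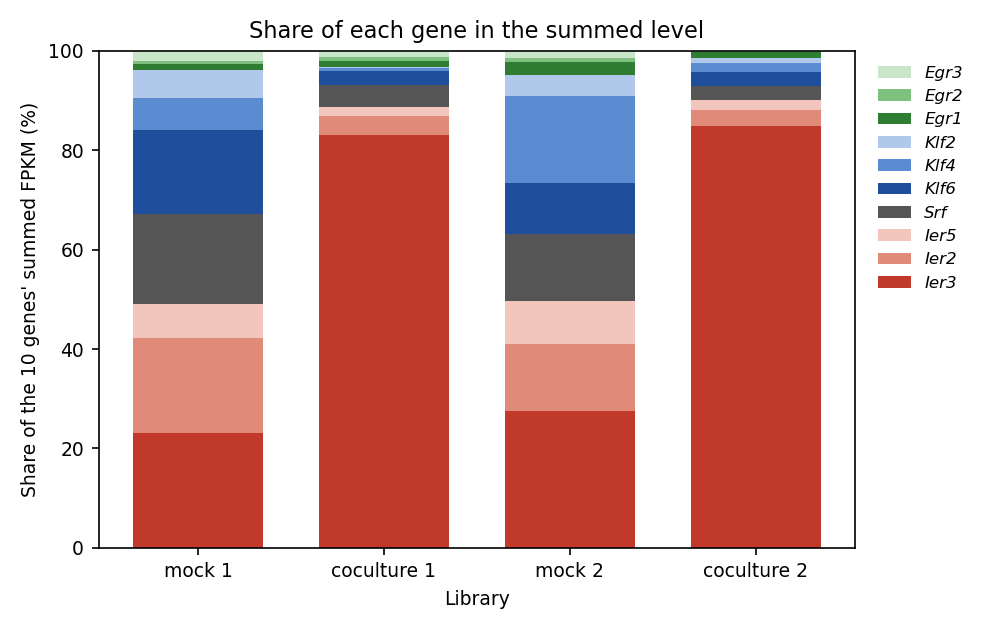
Share of each gene in the summed FPKM of the 10 genes (%, stacked bars from 0 to 100) in each library. Ier3 (red) goes from 23.2% and 27.4% in mock to 83.1% and 84.9% in coculture.

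The partners of these factors were followed in 8 further lists, chosen with earlier results of these data known. None of their tested genes passed limma's test over all genes, and their values are given as a description. Of the EGR and IER relatives and EGR corepressors, 3 of 4 were tested and Egr4 was listed at 0 in every library. Nab2, a corepressor of EGR proteins that they also induce, measured 25.5 FPKM (mock) and 73.4 FPKM (coculture) in pair 1 and 22.7 FPKM (mock) and 22.4 FPKM (coculture) in pair 2. Like Egr2, it was high in coculture 1 only. Nab1, the related corepressor, gave differences of 0.70 and 0.28 (mean 0.49 ± 0.16, limma adjusted p = 0.297). Nab2 falls outside the naming rule and was chosen after its values were seen.

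Of 14 other KLF genes, 7 were tested, with a median difference of -0.27, and 4 of them were lower and 2 higher in both pairs, against 42.2% and 21.5% of all tested genes. Klf7 was the 1 that was 2-fold higher in both: pair 1 gave 4.70 FPKM (mock) and 10.7 FPKM (coculture), and pair 2 gave 8.21 FPKM (mock) and 18.1 FPKM (coculture). The differences of 1.04 and 1.05 were nearly equal, but the mean of 1.04 ± 0.14 did not pass (limma adjusted p = 0.118). Klf11 and Klf9 differed by -0.43 ± 0.22 and -0.37 ± 0.15. Of 5 listed targets of KLF2, S1pr1 and Itgb7 were tested. S1pr1, which encodes a receptor for sphingosine-1-phosphate, measured 1.38 FPKM (mock) and 0.0814 FPKM (coculture) in pair 1 and 16.7 FPKM (mock) and 0.675 FPKM (coculture) in pair 2. Its differences were -1.14 and -3.40 (mean -2.27 ± 0.57, limma adjusted p = 0.236), while those of Klf2 itself were -1.16 and -0.03. The levels of S1pr1 in pair 1 are near or below the 1 FPKM added before the logarithm. Its smaller difference in pair 1 therefore does not show a smaller fold change than in pair 2. The differences of Itgb7, an integrin gene, were -0.08 and 0.03 (mean -0.03 ± 0.14, limma adjusted p = 0.932). Itgb7 falls outside the naming rule and is given as the only other tested gene of that list.

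ERK5 and MEF2 proteins are known to drive Klf2 and Klf4. Of the 7 genes of that list, all tested, 4 were lower in both pairs (42.2% of all tested genes were), 0 were higher in both (21.5%), and the median was -0.18, so the share of lower genes was near the background. Mef2c measured 33.8 FPKM (mock) and 18.2 FPKM (coculture) in pair 1 and 71.7 FPKM (mock) and 29.3 FPKM (coculture) in pair 2 (mean difference -1.06 ± 0.15, limma adjusted p = 0.123). Like Klf4, it was lower within each pair and higher in mock 2 than in mock 1. Mef2a differed by -0.57 ± 0.12 and Mef2d by -0.26 ± 0.12 (limma adjusted p = 0.190 and 0.398).

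The 5 tested SRF cofactors of 6 all had the same sign in both pairs, 3 of them lower (42.2% of all tested genes) and 2 higher (21.5%), with a median of -0.18. Mrtfa, which carries actin signals to SRF, measured 12.2 FPKM (mock) and 5.96 FPKM (coculture) in pair 1 and 19.3 FPKM (mock) and 11.9 FPKM (coculture) in pair 2, a difference of -0.79 ± 0.15 (limma adjusted p = 0.182). Elk1 differed by 0.32 ± 0.15 and Mrtfb by -0.20 ± 0.18. Of 15 cytoskeletal SRF targets, 7 were tested and the median was 0.21. Zyx, which encodes the focal adhesion protein zyxin, was higher in both pairs, with 7.03 FPKM (mock) and 29.2 FPKM (coculture) in pair 1 and 5.90 FPKM (mock) and 10.1 FPKM (coculture) in pair 2 (mean difference 1.30 ± 0.32, limma adjusted p = 0.234), as was Tpm1 at 0.33 ± 0.11, while Flna differed by -0.22 ± 0.14. Of these 7 targets, 2 were higher and 2 lower in both pairs (21.5% and 42.2% of all tested genes). The other 3 went opposite ways, a share near the 35.8% of all tested genes. Among these 3, Actg1 and Vcl were chosen after their values were seen: the pairs gave 1.45 and -0.19 for Actg1, and 0.37 and -1.21 for Vcl. The 12 genes of the ERK cascade, all tested, had a median of 0.02, and Braf differed by 0.43 and Map2k1 by 0.30.

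Of 27 other immediate early genes, 25 were tested. Their median difference was 0.89, against 0.18 for the 10 genes above, and 18 were higher and 2 lower in both pairs, against 21.5% and 42.2% of all tested genes. Dusp5 (3.65 ± 0.26), Myc (3.53 ± 0.35) and Nfkbia (2.22 ± 0.18) had the largest differences, with limma adjusted p of 0.054, 0.071 and 0.057. The 2 lower genes were Jun (mean difference -0.19) and Atf3 (-0.91). Another 5 went opposite ways, Fos among them (-0.48 and 0.23). Jun, Atf3 and Fos were named after their values were seen. At an unadjusted p under 0.05, 16 of the 25 were higher (background 5.26%) and 1 was lower (background 9.45%).

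**Figure D5:**
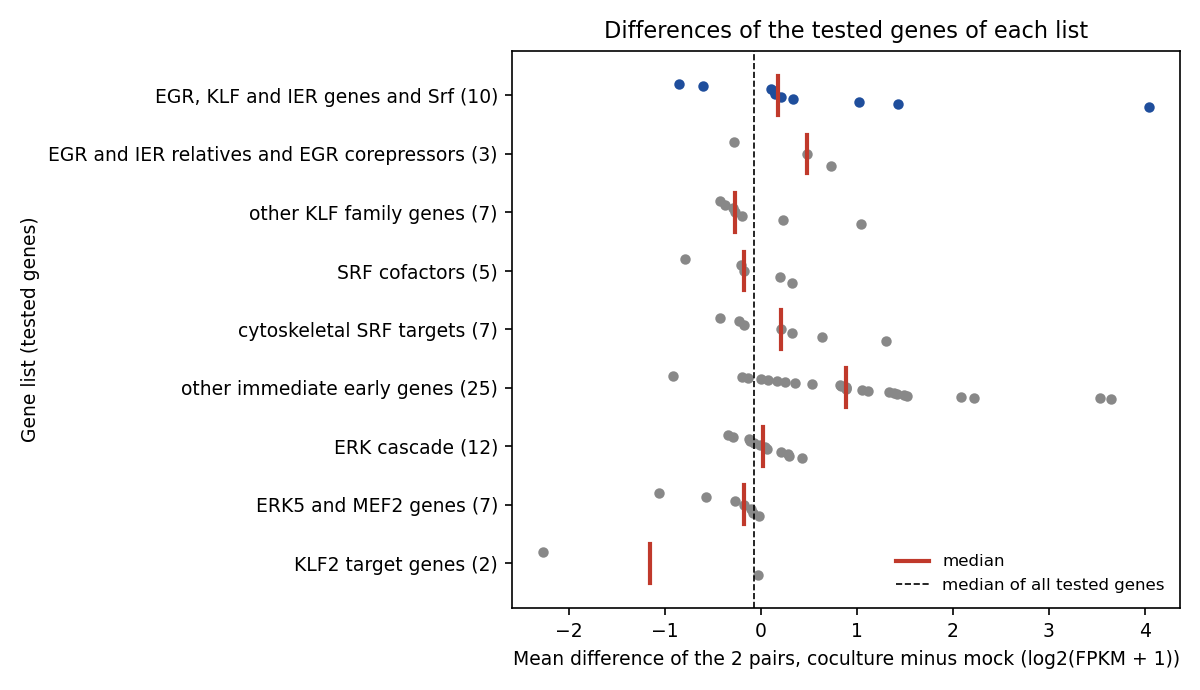
Mean difference of the 2 pairs, coculture minus mock, log2(FPKM + 1), for each tested gene of the 10 early response genes (blue) and of 8 related lists (grey), with each list's median (red bar) and the median of all tested genes (dashed line, -0.07). The other immediate early genes have a median of 0.89, and the ERK cascade genes lie close to 0.

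The tested genes nearest to 1 of the 10 were found by the Euclidean distance over the 2 within-pair differences, for the 3 genes whose mean difference was at least 1. Nearest to Ier3 were Ccl4 (distance 0.36), Dusp5 (0.58) and Tnf (0.68), which encode a chemokine, a phosphatase of ERK and a cytokine. The Ccl4 differences were 4.73 and 3.51. Nearest to Egr1 were Itga5 (0.07), Adora2b (0.11) and Il27 (0.13), and nearest to Egr2 were Ralgds (0.09), Tnfaip2 (0.21) and Myo10 (0.26). The distance is a description over 2 pairs, and both differences of a gene share their libraries with all others.

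Macrophage markers were present in every library: all 12 listed were tested, among them Csf1r at 397 to 637 FPKM and Adgre1 at 18.3 to 32.7 FPKM. The 12 summed to 10245 FPKM (mock 1), 10752 FPKM (coculture 1), 6678 FPKM (mock 2) and 13849.8 FPKM (coculture 2). Lyz2, which encodes a lysozyme, went from 3529 FPKM (mock 2) to 10287 FPKM (coculture 2) and made up most of the difference between the pair 2 sums. The other markers were split in that pair. Cd14, Itgam, Cd53, Fcgr1 and Adgre1 were also higher in coculture 2 than in mock 2. Csf1r, Cd68, Spi1, Ptprc, Tyrobp and Fcer1g were lower. Cd14 was higher in both pairs, at 607 FPKM (mock 1), 1732 FPKM (coculture 1), 354 FPKM (mock 2) and 1149 FPKM (coculture 2). Epithelial, mesenchymal and lymphoid markers were near 0. No library of CT26 cells alone was available, so it was not known which of these genes CT26 cells express. The 10 epithelial markers summed to 0.143 FPKM (mock 1), 0.167 FPKM (coculture 1), 0 (mock 2) and 0.045 FPKM (coculture 2), with Epcam and Krt18 listed at 0 in all 4 libraries. The 10 mesenchymal markers summed to 0.689 FPKM (mock 1), 0.462 FPKM (coculture 1), 0.167 FPKM (mock 2) and 0.228 FPKM (coculture 2). The 5 lymphoid markers summed to at most 0.174 FPKM and the 6 granulocyte markers to at most 2.73 FPKM. Across libraries, 10059 to 10469 genes reached 1 FPKM.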

How the data were processed

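mRNA libraries of RAW264.7 cells, 2 mock and 2 cocultured with CT26, were deposited by the authors as FPKM in 2 tables, 1 per replicate number. The tools, per the submitters' processing notes, were Trim Galore, Subread and featureCounts. The same notes name the human build hg38, although the symbols are those of the mouse. Tool versions, annotation, gene lengths and library totals were not known here. The first table has, per the file headers, 23427 rows with full decimals and the second 25239 rows rounded to 3 decimals. Unnamed rows (23, at most 5.2e-06% of a library's FPKM) and repeated names (106 on 287 rows, at most 1.07%) were left out.

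The deposited FPKM were used unscaled as log2(FPKM + 1) where a gene reached 1 FPKM in 2 or more libraries. limma 3.58.1 (R 4.3.3; trended prior, two-sided) compared coculture with mock with the pair as a block, since the tables may have been normalized separately. Some genes, such as Amd1, had clear levels in 1 table and were listed at 0 in the other, which no rescaling changes. Deviations from the group means correlated at 0.76 across genes between the libraries of a pair. The fit has 1 residual and 3.43 prior degrees of freedom. The code was tested on simulated data. The labels do not say whether the replicates are separate cultures, so the p-values may reflect technical spread alone.

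Depth was estimated from the steps of low FPKM values times GENCODE M21 exon lengths: 33.8% to 38.1% of values up to about 5 reads lay within 0.05 of a whole read, so reads per gene are approximate. The 10 genes and all lists were chosen with earlier results of these data known. Genes named beside the 10 are up to 3 tested genes per list, those with the largest mean difference among genes whose pairs went one way, and the 3 nearest genes of each of the 10 with a mean difference of at least 1; 1 gene so named is not reported here. Alternatives were other pseudocounts, filters and scalings, no block, no trend, each library left out, and a 1.5-fold bound.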

Additional observations from a re-analysis of the deposited data

How the results depend on the processing

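Over all genes, limma called 13 genes higher and 0 lower. The higher and lower counts were 22 and 0 with a pseudocount of 0.1, 0 and 0 with no filter on low values, 25 and 1 with at least 5 FPKM, 25 and 1 after rescaling to a common total, 85 and 18 after median centring, 43 and 3 after quantile normalization, 1 and 0 with no replicate block, 1 and 0 without a trended prior variance, and 0 and 0 without any 1 library. Of the 10 early response genes, 1 was called (Ier3) and 0 with no filter, with no replicate block, without a trended prior and without any 1 library. At least 2-fold differences in both pairs numbered 104 higher and 36 lower, 245 and 221 at a 1.5-fold bound, and 75 lower with a pseudocount of 0.1. Signs reversed for Egr3 with a pseudocount of 0.1 (-0.022) and without coculture 1, for Klf2 and Srf without coculture 1, for Klf4 without mock 2 and for Ier5 without mock 1. Over the fits without 1 library, the difference ranged from 0.38 to 1.66 for Egr2, from -1.17 to 1.60 for Egr3, from -1.21 to 0.018 for Klf2, from -0.18 to 0.47 for Srf, from -1.79 to 0.080 for Klf4, from -0.071 to 0.74 for Ier5 and from 3.67 to 4.43 for Ier3. Fits without a library are unblocked and cross the 2 tables, and a lone library is assumed to vary like the other group. The cause of these changes was not tested. The 9 genes other than Ier3 stayed uncalled in all settings run. With at least 5 FPKM, Egr2 and Egr3 could not be tested.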
